A study of Mus musculus with 8 samples.

Results

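The erythroid genes are 33 genes that encode the globin chains, the enzymes and carriers of haem synthesis, the skeleton and surface proteins of the red cell, the receptors for erythropoietin and transferrin, and a group of erythroid enzymes and regulators. They were chosen by name, with earlier results of these data known, and matched to the Ensembl IDs of the RNA files. Shares of members set beside all tested genes therefore describe this list and test nothing. Of the 45706 genes in those files 32 matched a member, and 31 had enough counts to be tested. Ahsp, the chaperone of free alpha globin, matched no gene by that symbol and is not analysed here.

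RNA sequencing and ATAC-seq, in which a transposase cuts open chromatin, were run on LSK cells, the Lin-negative, Sca1-positive and Kit-positive fraction of bone marrow that holds haematopoietic stem cells and multipotent progenitors. The groups were Hira conditional KO and WT, all on the C57BL/6 strain, with 2 libraries of each group in each assay. Hira encodes a histone chaperone that deposits the variant H3.3 outside replication. The labels give no age and do not name the Cre behind the conditional KO. Nor do they say whether libraries came from separate animals, so p-values measure only the spread between these libraries.

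The genotype labels are in doubt. Every deposited file carries in its name the genotype opposite to that of its sample title, and Hira itself had 24.4 and 23.3 CPM (counts scaled to the TMM-adjusted library size) in the libraries labelled Hira KO, against 16.5 and 17.2 CPM in those labelled WT. The log2 fold change of Hira, labelled Hira KO over labelled WT, was 0.50 (SE 0.19; edgeR quasi-likelihood test, adjusted p = 0.18), and gene-level counts do not show which exons were read. Groups therefore follow the titles and are called labelled Hira KO and labelled WT, and every direction given here would turn round if the titles were wrong.

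In red cell formation, progenitors that respond to erythropoietin through its receptor take up transferrin-bound iron, make haem in mitochondria and cytosol, and load it into globin. The factors Gata1 and Klf1 switch on most of these genes, and the surface and skeleton proteins are assembled as the cell matures. LSK cells lie upstream of this step, and erythroid transcripts in them are usually scarce.

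Total expected counts were 17.49 and 19.37 M in labelled Hira KO and 16.6 and 19.85 M in labelled WT, of which 42.9% and 53.1%, and 40.8% and 51.7%, came from mitochondrially encoded genes. Labelled Hira KO replicate 2 stood apart from the others: the transcript AY036118 had 6 counts in it, against 86174 in labelled Hira KO replicate 1 and 95094 and 108841 in the labelled WT libraries. The Sca1 gene Ly6a had 23.1 and 33.6 CPM in labelled Hira KO and 10.3 and 8.86 CPM in labelled WT, and Kit had 330 and 327 CPM against 274 and 351 CPM, so both gate markers were present in every library.

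The erythroid genes were mostly less abundant in the labelled Hira KO libraries, but with 2 libraries a group only 1 of them passed the test. Of 31 tested members, 25 had a log2 fold change below 0 and 17 had one of -1 or less, where 49.1% and 5.43% of all 16258 tested genes did. The median was -1.07 over the members and 0.01 over all tested genes. In 21 of the 31 both labelled Hira KO libraries lay below both labelled WT libraries, and in 1, Nfe2, above; of all tested genes 27.8% and 28.3% did so. Tspo2 alone was called lower and no member was called higher at an adjusted p below 0.05, where 0.48% of all tested genes were called lower, 1.32% higher and 1.8% in either direction. At an unadjusted p under 0.05, 12 members were lower and 0 were higher, where 10.6% of all tested genes were lower and 12.2% higher. DESeq2 called 8 members lower and 0 higher, where it called 3.51% of all tested genes lower and 5.65% higher. In bulk RNA, fewer erythroid cells in the gate and less erythroid RNA per cell cannot be told apart.

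The summed level of the 32 members was 1078 and 605 CPM in labelled Hira KO and 1453 and 1766 CPM in labelled WT. Labelled Hira KO replicate 2 was the lowest library for 22 of the 32 members, against 33.4% of all tested genes. Labelled Hira KO replicate 1 lay above it in 24 members, against 50.3% of all tested genes. Without labelled Hira KO replicate 2 the median over the members was -0.65 and 11 were called lower, where 3.07% of all genes were; without labelled Hira KO replicate 1 it was -1.76 and 17 were called lower, where 10.8% of all genes were. With labelled WT replicate 1 or labelled WT replicate 2 left out, no member was called, and of all genes 0.00567% and 0.00571% were called lower in these fits.

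**Figure D1:**
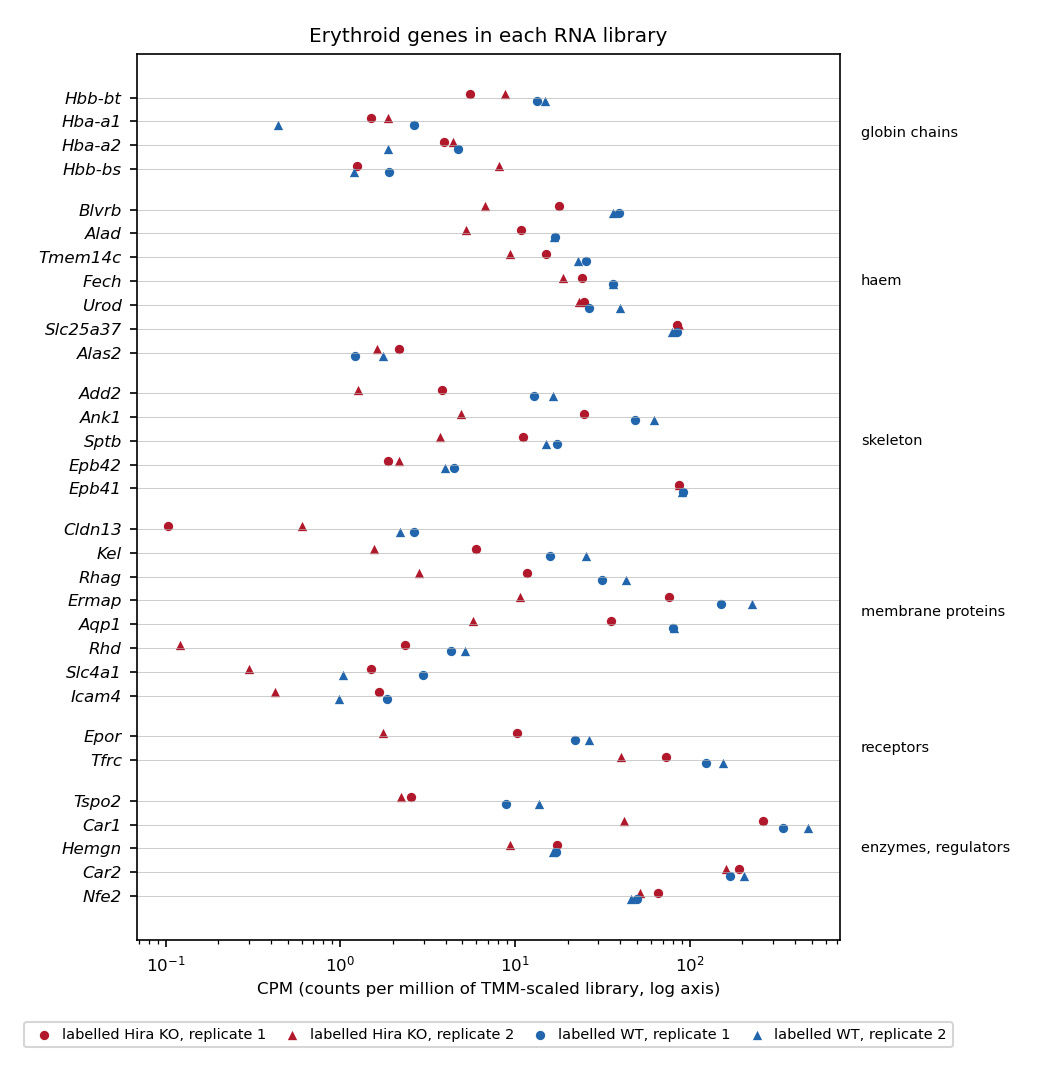
CPM of the 31 tested erythroid genes (log axis) in each RNA library, by role; red marks are labelled Hira KO, blue marks labelled WT, circles replicate 1 and triangles replicate 2. Most membrane, skeleton and receptor genes have both red marks left of both blue marks, with labelled Hira KO replicate 2 often far left of replicate 1, whereas the globin marks mix.

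The globin genes had the highest median of the role groups, a log2 fold change of 0.23 over 4 genes. With labelled Hira KO replicate 2 left out that median was -0.19, and with labelled WT replicate 2 left out -0.43, both below that of the enzymes and regulators in the same fit. Of the 4, 3 had overlapping groups, none was called by edgeR or DESeq2, and 1, Hbb-bt, had an unadjusted p under 0.05. The counts in single role groups are small, and 10.6% of all tested genes were lower at that p. Hba-a1 and Hba-a2 encode near-identical alpha chains and share reads, so their split is uncertain, as is that of the beta chain genes Hbb-bs and Hbb-bt. The alpha genes together had 5.44 and 6.25 CPM in labelled Hira KO and 7.36 and 2.30 CPM in labelled WT, so the labelled Hira KO values lay between the labelled WT ones. The beta genes together had 6.74 and 16.8 CPM in labelled Hira KO and 15.3 and 15.98 CPM in labelled WT. Only labelled Hira KO replicate 1 was low in this sum.

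Of the single beta genes, Hbb-bt had 5.49 and 8.78 CPM in labelled Hira KO and 13.4 and 14.8 CPM in labelled WT, a log2 fold change of -0.98 (SE 0.30, adjusted p = 0.12). Hbb-bs had 1.24 and 8.05 CPM in labelled Hira KO and 1.91 and 1.20 CPM in labelled WT, a log2 fold change of 1.57 (SE 0.86, adjusted p = 0.33). The value for Hbb-bs rested on labelled Hira KO replicate 2, and without that library it was -0.33. Given per length, the adult globins were minor transcripts: the beta genes summed to 17.0 and 31.7 TPM (the authors' transcript level, scaled for length and library) in labelled Hira KO and 42.0 and 33.6 TPM in labelled WT, where the carbonic anhydrase gene Car1 alone had 348 and 40.2 TPM, against 463 and 502 TPM. None of the 6 embryonic and theta-type globin genes was testable: their highest value in any library was 0.18 CPM, and 3 had no count in any library.

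The 250 bases before the start of both beta genes are shown because these copies share reads and their promoters differ. They are RefSeq sequences of GRCm38.p6, both on the minus strand: Hbb-bs at chr7:103827929-103828178 and Hbb-bt at chr7:103813924-103814173. In this and the other promoters shown, capitals mark 3 kinds of word found on either strand: GATA words (AGATAA or AGATAG or TGATAA or TGATAG), KLF words (CCNCNCCC) and NF-E2 words (TGANTCA), each read forwards or as its reverse complement, with N for any base.
Hbb-bs: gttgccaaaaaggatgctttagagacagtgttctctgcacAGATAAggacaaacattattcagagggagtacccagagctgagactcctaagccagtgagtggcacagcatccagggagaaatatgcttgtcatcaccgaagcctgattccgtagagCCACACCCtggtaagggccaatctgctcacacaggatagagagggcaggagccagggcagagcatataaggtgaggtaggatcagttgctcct
Hbb-bt: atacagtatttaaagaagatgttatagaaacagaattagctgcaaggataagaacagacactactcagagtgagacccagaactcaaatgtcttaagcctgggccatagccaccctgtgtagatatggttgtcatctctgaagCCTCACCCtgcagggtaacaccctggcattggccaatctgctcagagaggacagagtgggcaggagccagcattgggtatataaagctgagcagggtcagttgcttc
Hbb-bs held a GATA word at -210 and a KLF word at -93, and Hbb-bt a KLF word at -107 and no GATA word, with positions counted backwards from the start and -1 as the last base shown. An ATAC region over each start was called in all 4 ATAC libraries.

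Over all members with a promoter entry, 16 of 29 promoters held a GATA word (55.2%), 18 a KLF word (62.1%) and 2 an NF-E2 word (6.9%). Of all 32851 RefSeq promoters of this length 26.5%, 45.9% and 6.75% held them. No words of different kinds overlapped in the member promoters. A match is a run of letters and not a measured binding site.

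Of the 7 haem genes 5 had a log2 fold change below 0 (49.1% of all tested genes did), with a median of -0.76. None was called by edgeR, and 4 had an unadjusted p under 0.05, all of them lower in labelled Hira KO (10.6% of all tested genes were). Blvrb, which reduces biliverdin and flavins, had 17.8 and 6.73 CPM in labelled Hira KO and 39.4 and 36.2 CPM in labelled WT, a log2 fold change of -1.62 (SE 0.44, adjusted p = 0.12). Alad, the dehydratase that joins aminolevulinate molecules, had 10.8 and 5.23 CPM, against 17.0 and 16.8 CPM in labelled WT (-1.07, SE 0.35, adjusted p = 0.14). In both genes the groups did not overlap and labelled Hira KO replicate 2 was lowest.

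Tmem14c, which brings a haem precursor into mitochondria, had 15.1 and 9.38 CPM in labelled Hira KO and 25.4 and 22.9 CPM in labelled WT (-0.98, SE 0.27, adjusted p = 0.096). Fech, the enzyme that inserts iron to complete haem, had 24.0 and 18.8 CPM, against 36.3 and 36.2 CPM in labelled WT (-0.76, SE 0.20, adjusted p = 0.086). DESeq2 called Blvrb, Tmem14c and Fech lower (3.51% of all tested genes were). The remaining haem genes differed less. Urod, a decarboxylase of the cytosolic steps, had 24.9 and 23.4 CPM in labelled Hira KO and 26.6 and 39.99 CPM in labelled WT. Alas2, the rate-limiting erythroid enzyme, had 2.18 and 1.62 CPM, against 1.22 and 1.75 CPM in labelled WT, and the mitochondrial iron carrier gene Slc25a37 had 84.4 and 87.0 CPM, against 85.1 and 79.5 CPM. The 95% interval of the Slc25a37 log2 fold change ran from -0.27 to 0.39.

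The genes of the membrane skeleton had a median log2 fold change of -1.12 over 5 genes, all of them below 0 (49.1% of all tested genes were). The median was -2.13 without labelled Hira KO replicate 1. None was called by edgeR and 1, Add2, was called lower by DESeq2 (3.51% of all tested genes were). An unadjusted p under 0.05 was found for 2, both lower (10.6% of all tested genes were). Add2, encoding the beta adducin that caps actin and binds spectrin, had 3.83 and 1.26 CPM in labelled Hira KO and 12.9 and 16.5 CPM in labelled WT, a log2 fold change of -2.51 (SE 0.50, adjusted p = 0.060). Ank1, the ankyrin that ties spectrin to the anion exchanger, had 24.7 and 4.93 CPM, against 48.7 and 62.7 CPM in labelled WT (-1.90, SE 0.85, adjusted p = 0.31). Both genes had groups that did not overlap, and for Ank1 the ratio between the labelled Hira KO libraries was larger than that between the nearest libraries of the 2 groups.

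Sptb, the erythroid beta spectrin, had 11.0 and 3.73 CPM in labelled Hira KO and 17.3 and 14.9 CPM in labelled WT (-1.12, SE 0.48, adjusted p = 0.23). Epb42, which helps to anchor the anion exchanger, had 1.87 and 2.16 CPM, against 4.45 and 3.99 CPM in labelled WT (-1.07, SE 0.40, adjusted p = 0.17). Epb41, which joins spectrin and actin and is also made in other cells, was nearly level at 86.6 and 87.3 CPM, against 91.4 and 90.8 CPM in labelled WT. Its log2 fold change had a 95% interval from -0.39 to 0.26.

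The surface proteins had the lowest median of the role groups, -2.03 over 8 genes, with all 8 below 0 (49.1% of all tested genes were). None was called by edgeR, 2 (Kel and Cldn13) were called lower by DESeq2 (3.51% of all tested genes were), and 3 had an unadjusted p under 0.05 (10.6% of all tested genes, lower). Kel, a surface metallopeptidase that carries the Kell antigens in humans, had 6.01 and 1.56 CPM in labelled Hira KO and 15.8 and 25.6 CPM in labelled WT (-2.44, SE 0.64, adjusted p = 0.12). Rhag, the ammonium channel of the Rh complex, had 11.8 and 2.83 CPM, against 31.7 and 43.4 CPM in labelled WT (-2.35, SE 0.70, adjusted p = 0.16). Ermap, an erythroid surface protein of the butyrophilin-like kind, had 76.4 and 10.6 CPM, against 152 and 227 CPM in labelled WT (-2.12, SE 1.13, adjusted p = 0.39). In all 3 genes every labelled Hira KO value was under every labelled WT value, and replicate 2 was the lower labelled Hira KO library by several fold.

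The 250 bases before the starts of these 3 genes are shown because an ATAC region called in all 4 libraries covered each start. They are RefSeq sequences of GRCm38.p6: Kel at chr6:41704326-41704575 on the minus strand, Rhag at chr17:40810899-40811148 on the plus strand and Ermap at chr4:119189996-119190245 on the minus strand.
Kel: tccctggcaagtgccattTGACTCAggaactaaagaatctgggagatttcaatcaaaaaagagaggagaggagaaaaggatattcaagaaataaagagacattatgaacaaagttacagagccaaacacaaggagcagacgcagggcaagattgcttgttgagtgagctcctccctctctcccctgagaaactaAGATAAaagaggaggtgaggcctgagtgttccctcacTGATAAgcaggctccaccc
Rhag: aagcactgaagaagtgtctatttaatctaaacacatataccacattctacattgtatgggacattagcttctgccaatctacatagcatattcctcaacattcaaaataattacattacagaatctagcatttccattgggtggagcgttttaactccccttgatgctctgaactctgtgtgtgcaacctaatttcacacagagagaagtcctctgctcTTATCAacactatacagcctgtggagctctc
Ermap: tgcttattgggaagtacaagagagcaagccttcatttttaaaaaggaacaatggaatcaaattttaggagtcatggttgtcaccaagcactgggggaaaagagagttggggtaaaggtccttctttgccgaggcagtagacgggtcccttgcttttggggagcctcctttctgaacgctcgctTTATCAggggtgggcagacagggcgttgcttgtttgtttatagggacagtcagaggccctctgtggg
All 3 held a GATA word, at -56 and -19 in Kel, at -31 in Rhag and at -67 in Ermap. Kel also held an NF-E2 word at -232, and none of the 3 held a KLF word. The authors' fold enrichment over the Rhag start was 30.5 and 26.8 in labelled Hira KO and 61.8 and 45.0 in labelled WT. Over the Ermap start it was 26.3 and 20.9, against 48.3 and 30.5 in labelled WT. Over the Kel start the groups overlapped, with 63.2 and 52.8, against 98.3 and 60.4 in labelled WT.

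Aqp1, the water channel, had 35.6 and 5.71 CPM in labelled Hira KO and 79.8 and 80.8 CPM in labelled WT (-1.95, SE 1.0, adjusted p = 0.37). Rhd, the Rh antigen gene, had 2.33 and 0.12 CPM, against 4.29 and 5.20 CPM in labelled WT (-1.92, SE 1.02, adjusted p = 0.32). Cldn13, a claudin of mouse erythroid cells, had 0.10 and 0.60 CPM, against 2.65 and 2.19 CPM in labelled WT (-2.79, SE 0.83, adjusted p = 0.12). Cldn13 was the only one of these 3 with a lower level in labelled Hira KO replicate 1 than in replicate 2. Slc4a1, the anion exchanger, had overlapping groups, with 1.5 and 0.30 CPM in labelled Hira KO and 2.96 and 1.04 CPM in labelled WT, and so did Icam4, an adhesion protein, with a log2 fold change of -0.44 (SE 0.80, adjusted p = 0.79).

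Both receptor genes were lower in labelled Hira KO with groups that did not overlap (27.8% of all tested genes were), and neither was called by edgeR. Tfrc had an unadjusted p under 0.05 (10.6% of all tested genes did, lower) and was called lower by DESeq2 (3.51% of all tested genes were). Epor, the erythropoietin receptor, had 10.2 and 1.74 CPM in labelled Hira KO and 22.1 and 26.6 CPM in labelled WT, a log2 fold change of -2.02 (SE 0.83, adjusted p = 0.26). Tfrc, the transferrin receptor that every dividing cell uses to take up iron, had 73.1 and 40.5 CPM, against 123 and 154 CPM in labelled WT (-1.29, SE 0.29, adjusted p = 0.076). The Epor promoter is shown because ATAC regions beside this gene differed between the groups, as described for chromatin; it is the RefSeq sequence of GRCm38.p6 at chr9:21963577-21963826, minus strand.
Epor: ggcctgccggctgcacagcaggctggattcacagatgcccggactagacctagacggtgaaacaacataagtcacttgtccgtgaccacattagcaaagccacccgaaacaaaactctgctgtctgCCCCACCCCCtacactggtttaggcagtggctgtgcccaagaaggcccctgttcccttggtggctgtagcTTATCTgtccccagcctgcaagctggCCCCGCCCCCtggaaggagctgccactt
It held a GATA word at -54 and overlapping KLF words at -124 and -122 and at -28 and -26.

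Among the enzymes and regulators, Tspo2 fell, and it was the member that passed the test. Tspo2 encodes an erythroid membrane protein of the translocator family that handles cholesterol. It had 2.54 and 2.22 CPM in labelled Hira KO and 8.89 and 13.7 CPM in labelled WT, a log2 fold change of -2.24 (SE 0.35, edgeR quasi-likelihood adjusted p = 0.037). The labelled Hira KO libraries lay close together and below both labelled WT libraries. The call held without either labelled Hira KO replicate (adjusted p = 0.0042 without replicate 1 and 0.011 without replicate 2), and was lost without labelled WT replicate 1 (adjusted p = 0.26) or 2 (adjusted p = 0.33), fits that called at most 3 of all genes in any 1 direction.

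The Tspo2 promoter is shown as that of the called gene, from the RefSeq sequence of GRCm38.p6 at chr17:48451502-48451751, minus strand.
Tspo2: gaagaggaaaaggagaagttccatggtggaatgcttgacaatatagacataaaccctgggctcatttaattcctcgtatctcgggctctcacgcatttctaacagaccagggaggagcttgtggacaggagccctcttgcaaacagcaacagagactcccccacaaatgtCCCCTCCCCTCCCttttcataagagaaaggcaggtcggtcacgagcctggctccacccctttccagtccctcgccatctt
It held overlapping KLF words at -80 and -75 and no GATA or NF-E2 word. An ATAC region called in all 4 libraries covered its start, and none of the 7 regions within 10 kb of the gene was called in both libraries of 1 group alone.

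Of the other genes of this group, Car2 and Hemgn had overlapping groups. Car1, a carbonic anhydrase, had 262 and 41.8 CPM in labelled Hira KO and 342 and 476 CPM in labelled WT (-1.43, SE 1.05, adjusted p = 0.52), so labelled Hira KO replicate 1 lay near the labelled WT values. Car2, a carbonic anhydrase also made in many other cells, had 192 and 161 CPM, against 171 and 206 CPM in labelled WT. Hemgn, a nuclear regulator of erythroid differentiation, had 17.5 and 9.38 CPM, against 17.2 and 16.5 CPM in labelled WT. Nfe2, the tissue-restricted subunit of NF-E2 that megakaryocytes use as well, had 65.9 and 51.6 CPM in labelled Hira KO and 49.8 and 46.4 CPM in labelled WT (0.29, SE 0.18, adjusted p = 0.37), the only member with both labelled Hira KO values on top. Trim10, a tripartite motif protein of late erythroid cells in mouse, had 1 and 0 counts in labelled Hira KO and 8 and 5 counts in labelled WT and was not tested.

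**Figure D2:**
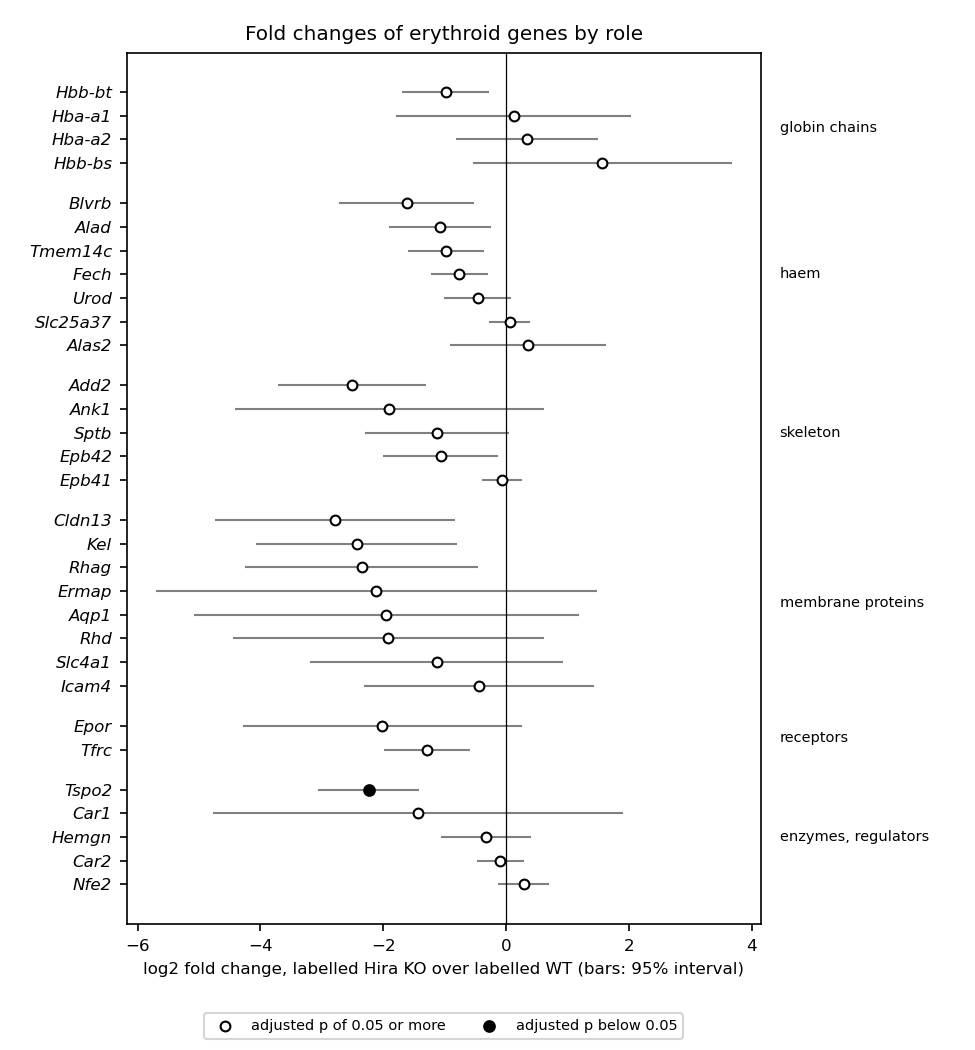
Log2 fold change, labelled Hira KO over labelled WT, of the 31 tested erythroid genes by role, with 95% intervals; filled points have an adjusted p below 0.05. Tspo2 is the only filled point. The membrane genes have the lowest median, -2.03, and wide intervals, although Icam4 among them lies at -0.44 and Add2 of the skeleton at -2.51.

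Beyond the members, 77 other genes of the pathway were followed in 6 lists chosen by function. Of the 71 that were tested, edgeR called 0. At an unadjusted p under 0.05, 25 were lower and 5 higher, beside 10.6% and 12.2% of all tested genes. DESeq2 called 10 lower and 2 higher, beside 3.51% and 5.65% of all tested genes, and limma on log2(TPM + 1) called 8 lower and 1 higher, beside 1.61% and 2.41%. Their median log2 fold change was -0.28. The list medians were -0.73 for 17 other haem genes, -0.60 for 11 iron genes, -0.43 for 16 other skeleton and surface genes, -0.25 for 15 erythroid transcription factors and cofactors, and 0.16 for 12 genes of erythropoietin signalling.

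Of the other haem genes, Glrx5, a glutaredoxin for iron-sulfur clusters, had 4.87 and 1.92 CPM in labelled Hira KO and 9.69 and 7.60 CPM in labelled WT (-1.34, SE 0.46, adjusted p = 0.15). Steap3, a reductase for iron taken up with transferrin, had 17.2 and 8.66 CPM, against 40.8 and 54.3 CPM in labelled WT (-1.87, SE 0.34, edgeR adjusted p = 0.053). Tfr2, the second transferrin receptor gene, which also modulates erythropoietin signalling, had 24.6 and 19.7 CPM, against 41.5 and 55.4 CPM in labelled WT (-1.13, SE 0.22, adjusted p = 0.052). In these 3 genes the groups did not overlap and edgeR made no call, while DESeq2 called Steap3 and Tfr2 lower and limma on log2(TPM + 1) called Glrx5 and Steap3 lower.

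Of the erythroid factors, Lmo2, a bridging protein of the Gata1 and Tal1 complex, had 122 and 132 CPM in labelled Hira KO and 72.6 and 78.5 CPM in labelled WT (0.75, SE 0.14, adjusted p = 0.052). Its partner Ldb1 had 69.4 and 65.5 CPM, against 96.4 and 101 CPM in labelled WT (-0.55, SE 0.14, adjusted p = 0.089). Named after their values were seen, Klf1 had 12.3 and 2.04 CPM in labelled Hira KO and 37.2 and 40.7 CPM in labelled WT, and Gata1 had 7.10 and 1.74 CPM, against 12.4 and 13.2 CPM. Both master factors were thus lowest in the same library as most members. Neither was called (edgeR quasi-likelihood adjusted p = 0.23 for Klf1 and 0.21 for Gata1). Of the 15 genes of this list, 9 had a log2 fold change below 0 and 6 above it.

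In erythropoietin signalling, Pim1, a kinase induced by Stat5, had 45.0 and 78.3 CPM in labelled Hira KO and 24.0 and 15.05 CPM in labelled WT (1.66, SE 0.34, adjusted p = 0.065), and the adaptor gene Gab2 had a log2 fold change of 0.68 (SE 0.20, adjusted p = 0.11). These were above 0 while Epor was below it. Of the other surface genes, the nucleoside carrier gene Slc29a1 had a log2 fold change of -0.91 (SE 0.18, adjusted p = 0.056) and the mechanosensitive channel gene Piezo1 one of -0.65 (SE 0.14, adjusted p = 0.065).

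**Figure D3:**
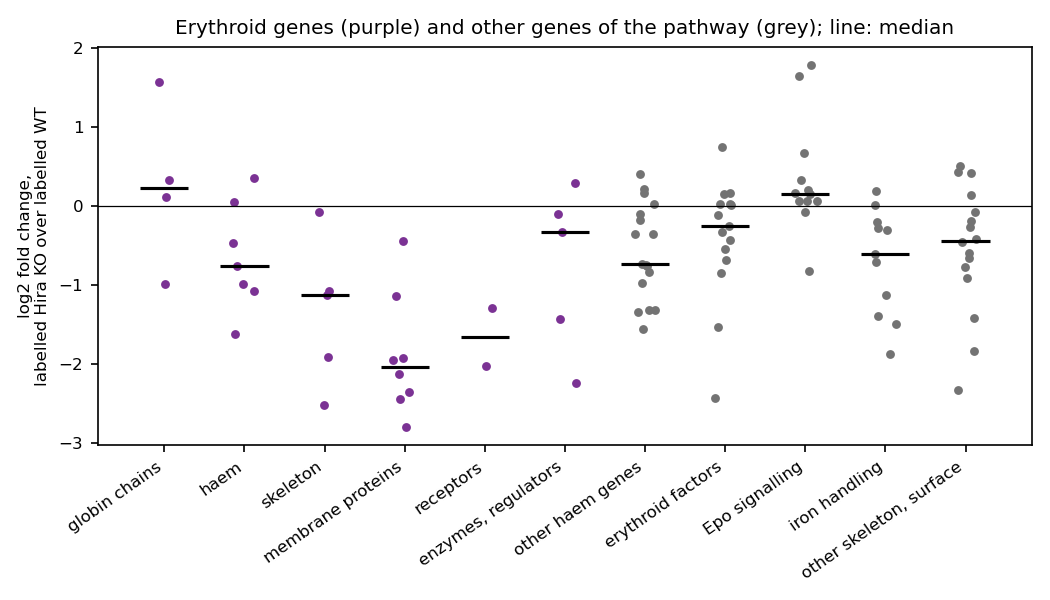
Log2 fold change, labelled Hira KO over labelled WT, of each tested gene in the 6 role groups of the erythroid genes (purple) and in 5 other lists of the pathway (grey), with the median of each list as a line. The membrane proteins have the lowest median, -2.03, and the globin chains and erythropoietin signalling have medians above 0.

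Markers of other cells of the marrow moved as well. Of all tested genes, edgeR called 1.32% higher and 0.48% lower, and DESeq2 5.65% higher and 3.51% lower. The 10 stem and progenitor markers summed to 1453 and 1818 CPM in labelled Hira KO and 705 and 850 CPM in labelled WT, with 5 called higher by edgeR, among them Ly6a, Flt3, Hlf and Meis1, and Kit level. The 13 granulocyte and monocyte markers summed to 1724 and 907 CPM, against 4298 and 2751 CPM in labelled WT, with 2 called lower by edgeR (Lcn2 and Ly6c2). DESeq2 called 6 of the stem and progenitor markers higher and 4 of the granulocyte and monocyte markers lower. No marker of these lists was at 0 in every library. The 10 megakaryocyte markers, from the lineage closest to the erythroid one, summed to 50.5 and 30.6 CPM, against 51.2 and 29.2 CPM in labelled WT, with none called by edgeR or DESeq2. The 8 mast cell and basophil markers summed to 39.0 and 36.4 CPM, against 74.7 and 65.2 CPM, with none called by edgeR and 2, Mcpt8 and Ms4a2, called lower by DESeq2. The macrophage, B-lineage and endothelial or stromal sums overlapped between the groups, although edgeR called Jchain higher and Igll1 and Cdh5 lower. DESeq2 also called Mrc1, Kdr and Cxcl12 lower and Emcn higher. Without Jchain the other 9 B-lineage markers summed to 181 and 140.2 CPM, against 332 and 268 CPM in labelled WT, and DESeq2 called 6 of them lower. The T-lineage sum was 23.9 and 29.6 CPM, against 16.1 and 14.7 CPM in labelled WT, with Cd4 called higher. The part of these markers in the values of the erythroid genes was not tested.

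Open chromatin near the erythroid genes also differed between the groups, with regions called in the labelled WT libraries alone. Peaks of the 4 lists were merged, which left 364 regions within 10 kb of the gene bodies of the 32 measured members. Each of the 32 had at least 1 such region, while 3.98% of tested genes with a position had none. Of these, 201 and 201 were called in the labelled Hira KO libraries and 322 and 275 in the labelled WT libraries, or 55.2% and 55.2% against 88.5% and 75.5%. Of all 78093 regions within 10 kb of tested genes, 78.7% and 63.2% were called in the labelled Hira KO libraries and 71.5% and 55.5% in the labelled WT libraries. The peak lists held 92839 and 73715 peaks in labelled Hira KO and 79565 and 63422 in labelled WT.

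Near the members, 2 regions (0.549%) were called in both labelled Hira KO libraries and neither labelled WT library, and 53 (14.6%) in both labelled WT libraries and neither labelled Hira KO library. Around all tested genes these shares were 5.04% and 3.06%. Another 168 regions near the members (46.2%) were called in all 4 libraries, against 43.7% around all tested genes. These counts carry no test, because a peak list gives presence and absence under its own threshold. With peaks of a -log10 q of at least 10 alone, 2 regions near members (0.93%) were in the labelled Hira KO pair only and 16 (7.44%) in the labelled WT pair only, against 4.71% and 2.29% around all tested genes.

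**Figure D4:**
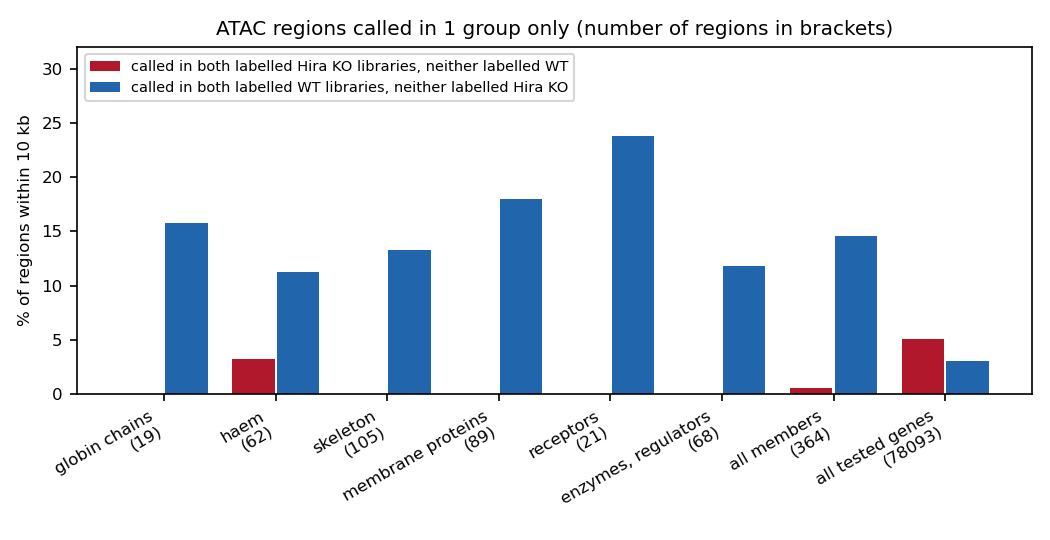
Share of merged ATAC regions within 10 kb of the genes of each role group, of all members and of all tested genes that were called in both labelled Hira KO libraries alone (red) or in both labelled WT libraries alone (blue). The blue bars of the members reach 14.6% in all, against 3.06% around all tested genes, and the red bars 0.549%, against 5.04%.

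Every role group held regions called in the labelled WT pair only: 16 of 89 regions near surface protein genes, 14 of 105 near skeleton genes, 8 of 68 near enzymes and regulators, 7 of 62 near haem genes, 5 of 21 near receptor genes and 3 of 19 near globin genes. They lay near 19 members, 39 of the 53 in or touching a gene body. Few annotated starts could lie in such a region, because 22 of 24 members with one had it covered in all 4 libraries. Of the 31 near members with an annotated start none covered it, and the other 22 lay near members whose start is not annotated here. Their authors' fold enrichment over background was modest, with a median of 4.23 in labelled WT replicate 1 and 4.92 in replicate 2, where regions near members called in all 4 libraries had medians of 20.6 and 16.6. Their median width was 409 bp, against 850.5 bp for those called in all 4 libraries.

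Slc4a1 had the most, with 9 of its 15 regions called in the labelled WT pair only and 3 called in all 4 libraries. Of these 9, 7 touched the gene body and 5 of the 7 lay at its low-coordinate end. The widest, at chr11:102347481-102348836 (GRCm38), lay mostly outside the gene body, whose low-coordinate end is at 102348820. The RNA of Slc4a1 was scarce in every library and its groups overlapped. Ank1 followed with 6 of 33 regions, and then Alad with 4 of 14 and Epb41, whose RNA was nearly level, with 4 of 24, all 8 of them touching the gene body.

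Tfrc had 3 such regions at its high-coordinate end, the widest at chr16:32632943-32634676, with fold enrichments of 10.2 and 10.2 in the labelled WT lists. Epor had 2, at chr9:21956706-21957181 and chr9:21957363-21957766, both within 2 kb of the low-coordinate end of the gene, while its start lay in a region called in all 4 libraries. Near the alpha globin genes, Hba-a2 had 3 such regions of 7, and 1 of these was also within 10 kb of Hba-a1; the beta globin genes had none. The 2 regions called in the labelled Hira KO pair only lay in Blvrb, at chr7:27451291-27451681, and beside Slc25a37, at chr14:69288820-69289119.

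**Figure D5:**
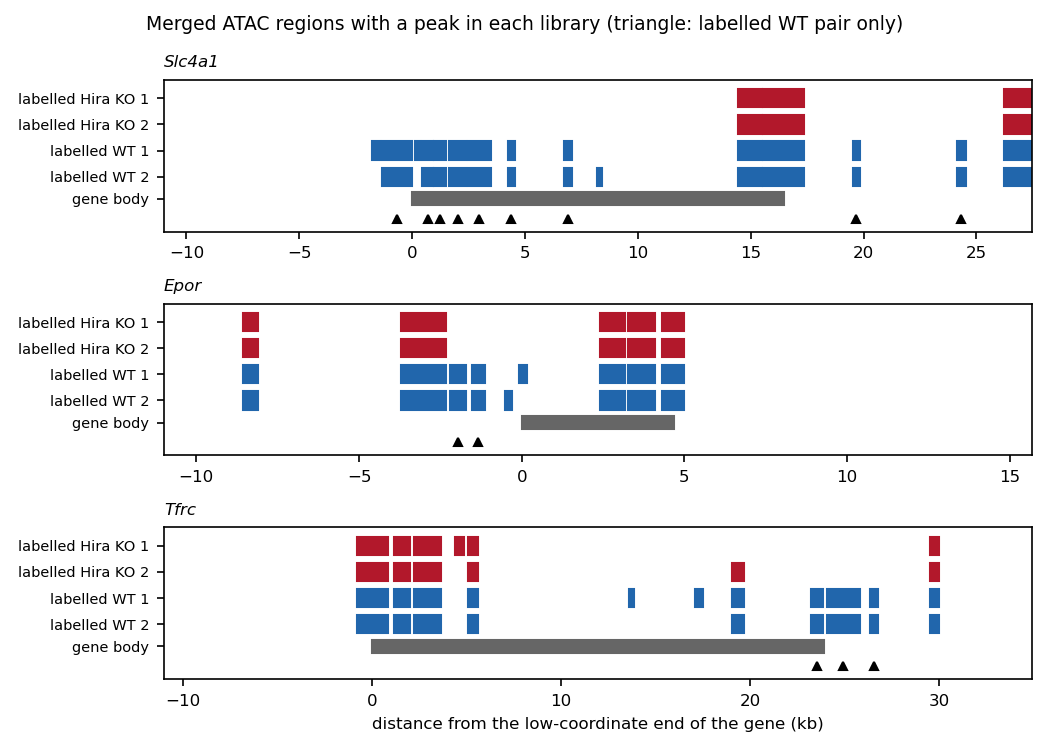
Merged ATAC regions around Slc4a1, Epor and Tfrc, drawn in the row of each library that called a peak there, against the distance in kb from the low-coordinate end of the gene; grey bars are gene bodies and triangles mark regions called in both labelled WT libraries alone. Slc4a1 has 9 triangles, Epor 2 and Tfrc 3, and regions in red rows are shared with at least 1 blue row except 1 in Tfrc.

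Most annotated starts of the members lay in a region called in both groups, but fold enrichment there was not always alike. At Tspo2 it was 28.9 and 27.8 in labelled Hira KO and 57.9 and 47.9 in labelled WT. At every globin start both labelled Hira KO values lay below both labelled WT values. Hbb-bs had 43.4 and 47.7, against 79.7 and 68.9 in labelled WT, and Hbb-bt 21.9 and 31.6, against 80.0 and 43.3. Hba-a1 had 28.4 and 35.3, against 48.7 and 40.7 in labelled WT, and Hba-a2 36.6 and 30.2, against 46.0 and 46.0. The covered Blvrb start went the other way, with 115 and 143, against 106 and 110, and the Tfrc values overlapped. These differences were not tested. Of 24 members with an annotated start, 22 had one covered by a region called in all 4 libraries (91.7%), against 80.6% of tested genes. The exceptions were Add2, with no region over its start, and Alas2, whose start region was called in labelled Hira KO replicate 1 and labelled WT replicate 1 only, with fold enrichments of 6.29 and 9.24.

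The same counts were taken near other gene lists, where the shares around all tested genes were 5.04% for the labelled Hira KO pair only and 3.06% for the labelled WT pair only. Near the granulocyte and monocyte markers, whose median log2 fold change was -1.31, 6 of 58 regions were called in the labelled Hira KO pair only and 1 in the labelled WT pair only. Another 25 of the 58 were called in labelled Hira KO replicate 1 alone, as were 11998 of the 78093 around all tested genes. Near the stem and progenitor markers the counts were 6 and 3 of 88. Near the erythroid factors they were 1 and 25 of 293, near the other haem genes 2 and 13 of 156, near the 6 embryonic and theta-type globin genes 0 and 3 of 16, near the megakaryocyte markers 1 and 4 of 48, and near the erythropoietin signalling genes 12 and 7 of 168. Near the iron genes they were 2 and 4 of 97, and near the other skeleton and surface genes 1 and 10 of 211. Near the B-lineage markers they were 4 and 2 of 58, and near the macrophage markers 1 and 2 of 40. Near the endothelial or stromal markers they were 1 and 0 of 44, and 0 and 0 near the mast cell, basophil and T-lineage markers. The differences between these lists were not tested.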

How the data were processed

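RNA-seq and ATAC-seq of sorted LSK cells were analysed from the deposited files, with groups and replicate numbers from the sample titles. The members and gene lists were chosen with earlier results of these data known. Per the labels' protocols, RNA was amplified with NuGEN's Ovation kit and made into libraries with Nextera XT, and nothing states that strand was kept. Per the submitters' processing notes the build was GRCm38 and the tools were RSEM 1.3.0, STAR 2.5.3a, HTSeq, DESeq2, MACS2 2.1.1, Bowtie2 2.2.9, Trim Galore 0.4.5 and bedtools, with no role stated.

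Per the file headers, an RNA file gives for each gene the authors' expected count, an estimate with no normalization, and the authors' TPM. ATAC peaks were called by the authors in every library separately, and each deposited peak has a fold enrichment, which is a ratio over background, a -log10 p-value and a -log10 q-value. The lists carry no read depth, and any shift for the transposase is a step not given in the sources used here.

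For testing, expected counts were rounded to whole numbers. The test was edgeR 4.0.16 (R 4.3.3) with TMM, filterByExpr and a robust quasi-likelihood fit on genotype alone, which kept 16258 genes. Adjusted p-values are Benjamini-Hochberg over all of these and called below 0.05. CPM are counts scaled to the TMM-adjusted library size, and 1 CPM stood for 16.6 to 19.3 counts. The biological coefficient of variation was 27.8%. Libraries of 1 group differed by more than sampling noise (chi-square per gene 74.8 in labelled Hira KO and 54.6 in labelled WT). DESeq2 1.42.0 and limma 3.58.1 on log2(TPM + 1) and log2(TPM + 0.1) were alternatives. Symbols matched 45143 of 45706 IDs. The edgeR step and the merging of peaks were tested on simulated data.

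ATAC intervals were reduced to unique ones, the mitochondrial interval was dropped, and peaks overlapping by at least 1 bp were merged into 112479 regions. Gene positions are RefSeq GRCm38.p6, matched by symbol for 32 members and 14052 tested genes. Promoter words were searched in the 250 bases before each RefSeq start. All members were described by role, and of each other pathway list any called gene and the 2 of lowest p. A gene that this rule picked from the pathway lists and a called marker gene are not reported here.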

Additional observations from a re-analysis of the deposited data

How the results depend on the processing

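Over the alternatives the direction of the members' median held, from -1.76 to -0.65 when 1 library was left out in turn, and the number of calls did not. Genes called higher and lower in labelled Hira KO numbered 918 and 570 with DESeq2, 1206 and 1017 with no filter on low counts, 355 and 161 with at least 10 counts in every library, 392 and 262 with limma on log2(TPM + 1), 376 and 246 with limma on log2(TPM + 0.1), and from 1 to 1657 and from 1 to 1888 with 1 library left out. Members called lower numbered 8, 12, 2, 11 and 10 in these fits and 0 to 17 with 1 library left out; 1 member, Hbb-bs, was called higher with no filter, and 0 to 1 with 1 library left out. A lone library is assumed to vary like the others, and no filter moved the median of all genes to 0.13. Medians with 1 library left out ran from -0.43 to 1.53 for globins (-0.19 without labelled Hira KO replicate 2, -0.43 without labelled WT replicate 2), from -2.13 to -1.02 for the skeleton, from -3.74 to -1.25 for surface proteins, from -2.81 to -1.096 for receptors and from -0.87 to 0.024 for enzymes and regulators (0.024 without labelled Hira KO replicate 2), whose median was -0.89 with no filter. The cause of these shifts was not tested.

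Of the values of single members under the alternatives, 14 of 367 changed sign; of those of 11 other named genes, 0 of 132 did. With 1 library left out in turn the log2 fold change ran from -0.67 to 1.91 for Hba-a1, from -0.19 to 1.15 for Hba-a2, from -0.33 to 2.35 for Hbb-bs, from -0.0040 to 0.096 for Slc25a37, from -1.76 to 0.22 for Icam4, from -0.25 to 0.032 for Car2 and from -0.87 to 0.045 for Hemgn. The signs of Icam4, Car2 (0.024), Hemgn, Hbb-bs and Hba-a1 (-0.05) turned without labelled Hira KO replicate 2, those of Hba-a1, Hba-a2, Slc25a37 and Car2 without labelled WT replicate 2, and that of Icam4 (0.079) without labelled WT replicate 1. With limma at pseudocounts of 1 and 0.1, Hba-a1 gave -0.13 and -0.063 and Slc25a37 gave -0.013 and -0.014.

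Replicate numbers are shared between the groups, but no label says that they pair libraries, and 2 pairs do not settle it. Deviations of same-numbered libraries had r = 0.04 over 16258 genes, while the mitochondrial share was higher in replicate 2 than in replicate 1 of both groups. With the replicate block 368 genes were called higher and 169 lower (2.26% and 1.04% of all tested genes). In that fit 2 members, Blvrb and Tspo2, were called lower.

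Regions near members numbered 662 within 50 kb and 215 at a -log10 q of at least 10, and 322 within 50 kb were called in every library. Regions of the labelled Hira KO pair only numbered 1 within 2 kb (0.365%, against 4.92% around all tested genes) and 13 within 50 kb (1.96%, against 5.35%). With 1 library left out they numbered 2 to 6 (0.583% to 1.69%, against 6.58% to 21.2% around all tested genes). Within 2 kb, 48 regions were of the labelled WT pair only (17.5%, against 3.06%). Regions of the labelled WT pair only numbered 16 at a -log10 q of at least 10 and 62 to 116 with 1 library left out, or 17.1% to 33.8% of the regions near members, against 5.18% to 12.2% around all tested genes. Within 50 kb that share was 9.21%, against 2.86%. Merging at 50% overlap of the shorter peak changed none of these by more than 1.5 times. Under 10 counts in at least 1 library lay Cldn13, Hba-a1, Icam4, Rhd, Slc4a1 and Trim10.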
